A study of Arabidopsis thaliana with 8 samples.

Results

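The 10 core genes of the circadian clock of Arabidopsis thaliana were followed in leaf messenger RNA of dcl1 mutants and wild type. The genes were chosen by locus: LHY (AT1G01060), CCA1 (AT2G46830), PRR9 (AT2G46790), PRR7 (AT5G02810), LNK1 (AT5G64170), PRR5 (AT5G24470), PRR3 (AT5G60100), TOC1 (AT5G61380), GI (AT1G22770) and ELF4 (AT2G40080). All 10 had counts in every library, of 22546 loci listed in any library, and all 10 passed the filter on low counts in every comparison. The first 5 are grouped here as morning genes and the other 5 as evening genes, after the time of day at which each is known to peak.

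DCL1 is a DICER-LIKE enzyme that releases microRNAs from precursor transcripts. The labels give the mutant as dcl1 and name no allele. Leaves came from plants grown in chambers at 25 °C by day and 18 °C by night with 16 h of light and no other treatment, and dcl1 and wild type shared all of these. Messenger RNA of the same RNA samples was made into libraries with High definition (HD) adapters and with standard Illumina (IL) adapters, which gave dcl1 HD, wild-type HD, dcl1 IL and wild-type IL groups of 2 libraries each, 8 in all from 4 RNA samples. HD adapters carry random bases at the ligated end, which IL adapters lack. Nothing in the labels says that the samples of a genotype came from separate plants. The p-values set the difference between genotypes against the spread between samples of a genotype, and that spread may be technical alone. The tests estimate the spread of a gene partly from the other loci, so a p-value does not rest on that gene's own samples alone. The hour of harvest is not given in the sources used here, so a different clock phase and a different level at 1 phase cannot be told apart. In bulk leaf RNA, fewer cells of a type and less RNA per cell cannot be told apart either.

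The plant clock is a set of transcription factors that repress one another in turn through the day. LHY and CCA1 are close relatives that rise at dawn and repress the evening genes; the PSEUDO-RESPONSE REGULATORS PRR9, PRR7, PRR5, PRR3 and TOC1 follow in a wave from morning to dusk, and most of them repress LHY and CCA1. At dusk ELF4 joins ELF3 and LUX in the evening complex, a repressor of PRR9 and PRR7 among others, while GI stabilises the F-box protein ZTL, which marks TOC1 and PRR5 for breakdown. LNK1 is a coactivator that REVEILLE factors bring to the promoters of evening genes.

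The 300 bases before the annotated start were read for each gene from the TAIR10.1 assembly (RefSeq) and searched on both strands for motifs that clock proteins are known to bind. The G-box CACGTG was present in 4 of the 10 genes, LHY, CCA1, PRR9 and PRR7, which are 4 of the 5 morning genes, and in 7.09% of all 27443 promoters of the same length. The evening element AAAATATCT, bound by LHY, CCA1 and REVEILLE factors, was present in PRR5 and TOC1, 2 of the 5 evening genes, and in 2.79% of all promoters. Its core AATATC, which overlaps the full element, was present in each of the 4 promoters printed here and in 28.8% of all promoters. The LUX-binding letters GATTCG were found in PRR9 (9.34% of all promoters), and the CCA1-binding letters AAAAATCT in PRR5 (7.94%). Promoters are printed for 4 of the 5 genes whose dcl1 and wild-type libraries did not overlap, 5′ to 3′ on the gene's strand, with capitals for the G-box, the evening element and its core on either strand.
LHY: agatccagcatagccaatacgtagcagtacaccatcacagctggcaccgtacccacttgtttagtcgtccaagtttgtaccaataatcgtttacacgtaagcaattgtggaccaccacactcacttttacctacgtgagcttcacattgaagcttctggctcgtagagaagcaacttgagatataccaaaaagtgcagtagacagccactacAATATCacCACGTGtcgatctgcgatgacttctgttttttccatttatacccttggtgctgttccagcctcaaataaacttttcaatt
LNK1: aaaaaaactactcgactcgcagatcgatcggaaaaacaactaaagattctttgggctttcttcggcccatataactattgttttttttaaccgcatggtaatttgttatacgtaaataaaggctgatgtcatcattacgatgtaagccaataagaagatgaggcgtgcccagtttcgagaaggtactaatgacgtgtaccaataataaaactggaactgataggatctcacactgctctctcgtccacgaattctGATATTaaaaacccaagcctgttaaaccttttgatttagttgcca
PRR3: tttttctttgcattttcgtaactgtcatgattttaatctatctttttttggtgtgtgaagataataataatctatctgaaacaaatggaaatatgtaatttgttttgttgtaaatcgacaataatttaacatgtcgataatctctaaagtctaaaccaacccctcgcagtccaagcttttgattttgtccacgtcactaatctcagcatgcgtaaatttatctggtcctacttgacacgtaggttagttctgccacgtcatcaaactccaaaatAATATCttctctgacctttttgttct
TOC1: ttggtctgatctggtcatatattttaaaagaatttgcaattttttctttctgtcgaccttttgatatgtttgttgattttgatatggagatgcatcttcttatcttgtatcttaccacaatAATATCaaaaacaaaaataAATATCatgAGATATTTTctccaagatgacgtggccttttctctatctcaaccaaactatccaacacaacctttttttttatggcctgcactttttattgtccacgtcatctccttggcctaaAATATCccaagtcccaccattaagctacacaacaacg
These windows lie at chr1:37872-38171 (minus strand) for LHY, chr5:25676824-25677123 (minus) for LNK1, chr5:24201416-24201715 (minus) for PRR3 and chr5:24674663-24674962 (plus) for TOC1. Counted from the annotated start, with -1 the base just before it, the G-box of LHY began at position -80 and its AATATC at -88. TOC1 held its evening element at -151 among 4 copies of the core. The letters are a description of these windows and not evidence of binding.

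The first question was whether the clock genes differ between dcl1 and wild type when the HD and IL counts of each RNA sample are summed, which gives 1 value per RNA sample and 2 per genotype. ELF4, PRR3 and LNK1 rose in dcl1 leaves: ELF4 averaged 2.41 times, LNK1 2.02 times and PRR3 1.52 times its wild-type level. None of the 10 genes fell by the edgeR test. LHY, at 0.258 times its wild-type level, and TOC1, at 1.33 times, did not pass, nor did GI, PRR5, PRR7, CCA1 and PRR9. Of the 10 genes, 3 rose and 0 fell by edgeR's quasi-likelihood test at an adjusted p under 0.05, against 8.85% of 19711 loci tested that were called in either direction (4.30% higher and 4.55% lower). At an unadjusted p under 0.05, 4 were higher and 1 was lower, and DESeq2 called 3 higher and 0 lower. The median log2 fold change, dcl1 over wild type, was -0.18 over the 5 morning genes and 0.41 over the 5 evening genes, beside 0.0070 over all loci tested.

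**Figure D1:**
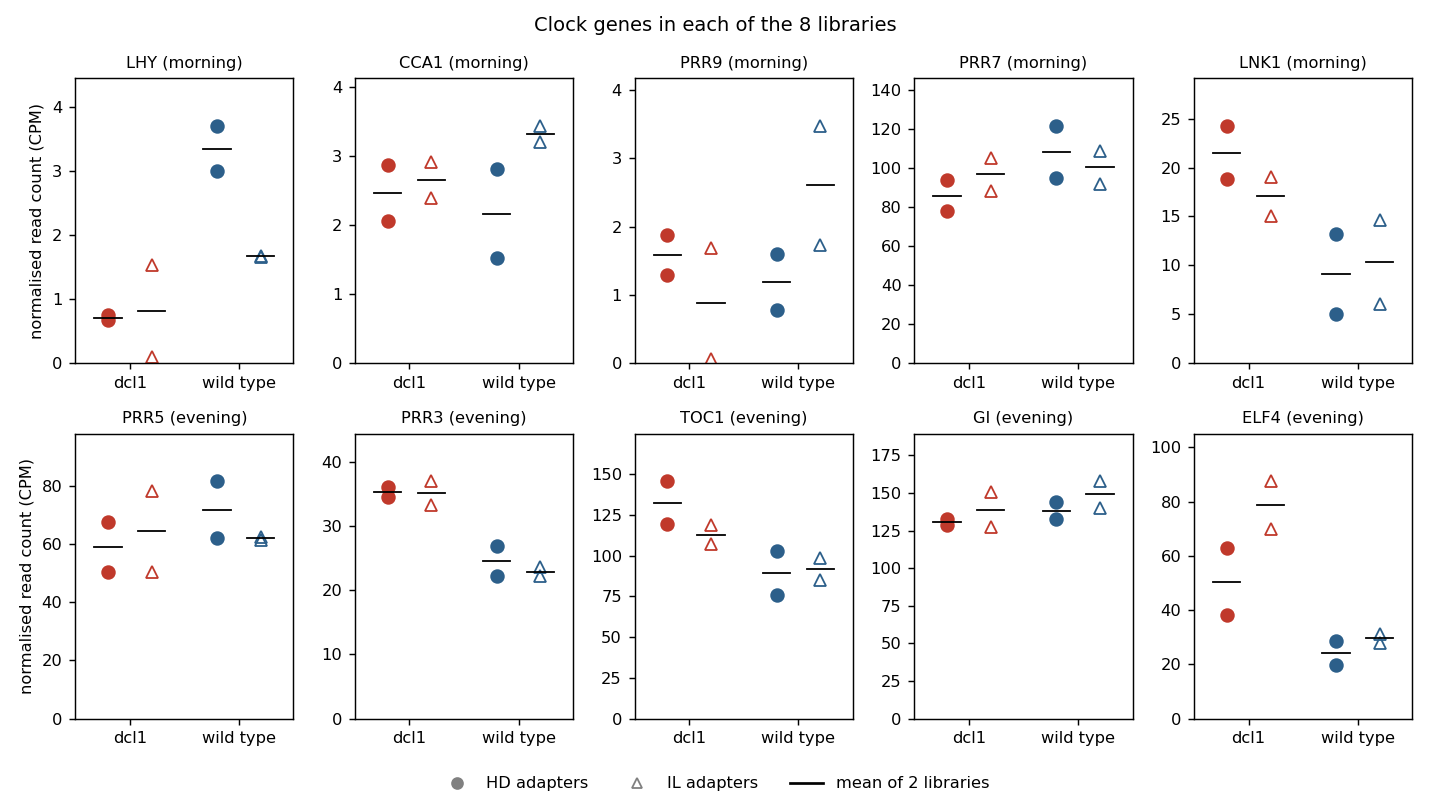
Normalised read counts (CPM, axes from 0) of the 10 clock genes in each of the 8 libraries, dcl1 left of wild type, with HD libraries as filled circles, IL libraries as open triangles and a line at the mean of each pair. The dcl1 and wild-type points are separate for ELF4, PRR3, TOC1 and LNK1, where dcl1 is higher, and for LHY, where dcl1 is lower; they overlap for the other 5 genes.

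ELF4, the small evening complex protein that binds ELF3, had the smallest adjusted p of the 10. It stood at 62.8 and 38.0 CPM (counts scaled to a common library size) in the dcl1 HD libraries, against 19.7 and 28.5 CPM in wild-type HD. In the dcl1 IL libraries it stood at 87.5 and 69.9 CPM, against 27.9 and 31.2 CPM in wild-type IL. Every dcl1 library lay above every wild-type library. On sums ELF4 had 65.0 ± 7.46 CPM in dcl1 and 26.9 ± 4.27 CPM in wild type (SD, n = 2 each), a log2 fold change of 1.27 (SE 0.17, 95% interval 0.92 to 1.62, adjusted p = 0.000103 by edgeR). It passed in each of the 10 alternatives run on sums, with log2 fold changes from 1.12 to 1.43. ELF4 is a gene of 1 exon at chromosome 2, 16734294 to 16734953, minus strand, and it shared no 50-base exon sequence with another locus.

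TOC1, the last of the PRR wave and a repressor of LHY and CCA1, and PRR3, which binds TOC1 and shields it from ZTL, were both higher in every dcl1 library than in any wild-type library. PRR3 (chromosome 5, 24197971 to 24201415, minus strand) stood at 36.0 and 34.5 CPM in dcl1 HD, against 22.2 and 26.8 CPM in wild-type HD, and at 33.3 and 36.9 CPM in dcl1 IL, against 22.1 and 23.7 CPM in wild-type IL. The dcl1 libraries were close to one another, and PRR3 rose by a log2 fold change of 0.60 (adjusted p = 0.0265, SE 0.16), with sums of 35.9 ± 0.724 CPM in dcl1 and 23.7 ± 2.23 CPM in wild type. Its call ended without wild-type sample 1 (log2 fold change 0.51, adjusted p = 0.114), dcl1 sample 1 (0.62, adjusted p = 0.0517) or dcl1 sample 2 (0.58, adjusted p = 0.0885). TOC1 (chromosome 5, 24674963 to 24678550, plus strand) stood at 119 and 146 CPM in dcl1 HD, against 75.7 and 103 CPM in wild-type HD, and at 119 and 107 CPM in dcl1 IL, against 84.9 and 98.5 CPM in wild-type IL. Here the wild-type samples lay apart, at 80.2 CPM in sample 1 and 100.8 CPM in sample 2 on sums, and both dcl1 samples lay near 120.3 CPM, their mean. The log2 fold change of TOC1 was 0.41 (SE 0.15, 95% interval 0.087 to 0.73) and did not pass (adjusted p = 0.114 by edgeR), but it passed without wild-type sample 2 (0.57, adjusted p = 0.0345). Without wild-type sample 1 it was 0.26 (adjusted p = 0.493).

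LNK1, grouped with the morning genes, rose in dcl1. It stood at 24.3 and 18.8 CPM in dcl1 HD, against 13.2 and 5.02 CPM in wild-type HD, and at 19.0 and 15.1 CPM in dcl1 IL, against 14.7 and 6.04 CPM in wild-type IL. All 4 dcl1 libraries lay above all 4 wild-type libraries, yet the wild-type samples differed more from each other than the nearest dcl1 and wild-type samples did, with sums of 22.8 and 16.5 CPM in dcl1 samples 1 and 2 and of 13.9 and 5.56 CPM in wild-type samples 1 and 2. LNK1 rose by a log2 fold change of 1.03 (SE 0.31, 95% interval 0.38 to 1.68, adjusted p = 0.0466 by edgeR). The value was 0.49 without wild-type sample 2 (adjusted p = 0.265) and 1.83 without wild-type sample 1 (adjusted p = 9.15e-09), and the call also ended without dcl1 sample 1 (0.77, adjusted p = 0.0867). LNK1 (chromosome 5, 25672466 to 25676823, minus strand) shares 245 bp of its exons, or 9.19%, with AT5G64160 on the other strand, and whether strand was used in counting is not given in the sources used here, so reads of that stretch cannot be told apart.

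LHY (chromosome 1, 33365 to 37871, minus strand) and CCA1 (chromosome 2, 19245591 to 19248915, plus strand), the dawn pair, had few counts in both genotypes. LHY had 35 and 11 counts in dcl1 HD, against 74 and 120 in wild-type HD, and 29 and 3 counts in dcl1 IL, against 37 and 71 in wild-type IL. Scaled, these were 0.755 and 0.667 CPM in dcl1 HD against 3.71 and 2.99 CPM in wild-type HD, and 1.53 and 0.0921 CPM in dcl1 IL against 1.67 and 1.66 CPM in wild-type IL. Each dcl1 library was below each wild-type library, though dcl1 IL library 1 was close to both wild-type IL libraries. On sums LHY had 0.636 ± 0.493 CPM in dcl1 and 2.47 ± 0.222 CPM in wild type, a log2 fold change of -1.94 (SE 0.70, 95% interval -3.42 to -0.46) that did not pass (adjusted p = 0.102 by edgeR). It passed without dcl1 sample 1 (-3.09, adjusted p = 0.0146) and with no filter on low counts (-1.94, adjusted p = 0.0485). Without dcl1 sample 2 it was -1.33 (adjusted p = 0.365). CCA1 had 2.60 ± 0.417 CPM in dcl1 and 2.76 ± 0.513 CPM in wild type, with libraries from 2.06 to 2.91 CPM in dcl1 and from 1.52 to 3.43 CPM in wild type that overlapped (log2 fold change -0.082, 95% interval -1.03 to 0.87, adjusted p = 0.948), an interval that does not settle whether the pair moved alike. The log2 ratio of LHY to CCA1 on sums was -1.19 and -1.83 in dcl1 samples 1 and 2, against -0.21 and -0.043 in wild-type samples 1 and 2.

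The remaining PRR genes did not pass, and their libraries overlapped. PRR7 (chromosome 5, 637681 to 642030, minus strand), a midday repressor of LHY and CCA1, ran from 77.8 to 105 CPM in dcl1 libraries and from 91.9 to 122 CPM in wild-type libraries. It had 91.4 ± 8.49 CPM in dcl1 and 104 ± 14.6 CPM in wild type on sums, a log2 fold change of -0.18 (SE 0.15, 95% interval -0.51 to 0.14, adjusted p = 0.548). PRR5 (chromosome 5, 8356204 to 8358546, minus strand), which takes over that role in the afternoon, ran from 50.2 to 78.2 CPM in dcl1 and from 61.4 to 81.5 CPM in wild type. On sums it had 60.8 ± 14.1 CPM in dcl1 and 66.6 ± 5.77 CPM in wild type (-0.13, SE 0.17, 95% interval -0.49 to 0.23, adjusted p = 0.735). PRR9 (chromosome 2, 19232607 to 19235179, plus strand), the first of the wave, ran from 0.0614 to 1.88 CPM in dcl1 and from 0.774 to 3.48 CPM in wild type. On sums it had 1.05 ± 0.521 CPM in dcl1 and 1.92 ± 0.924 CPM in wild type (-0.86, SE 0.69, 95% interval -2.31 to 0.59, adjusted p = 0.518). PRR9 counts are uncertain: 41.1% of its 50-base exon sequences occur elsewhere, mostly in AT2G46670 on the same chromosome, and its count was 2 in dcl1 IL library 2, against 31 to 77 in the wild-type libraries. The PRR3 to PRR5 log2 ratio was -0.99 and -0.48 in dcl1 samples 1 and 2, against -1.66 and -1.29 in wild-type samples 1 and 2.

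GI, the large evening protein that also drives flowering through CO, lay between 128 and 158 CPM in all 8 libraries (chromosome 1, 8061751 to 8067790, plus strand). It stood at 129 and 133 CPM in dcl1 HD, against 144 and 133 CPM in wild-type HD, and at 150 and 128 CPM in dcl1 IL, against 158 and 140 CPM in wild-type IL. Its log2 fold change on sums was -0.11 (SE 0.14, 95% interval -0.41 to 0.19, adjusted p = 0.729), with 133 ± 3.58 CPM in dcl1 and 144 ± 9.60 CPM in wild type. ELF4 relative to GI, both evening genes, was at a log2 ratio of -0.94 and -1.12 in dcl1 samples 1 and 2, against -2.63 and -2.17 in wild-type samples 1 and 2. Of the 10 genes, 6 did not overlap between genotypes on the 4 sums (LHY, LNK1, PRR3, TOC1, GI and ELF4), where 51.9% of all loci tested did not, and 5 did not overlap over the 8 libraries (LHY, LNK1, PRR3, TOC1 and ELF4), where 15.7% of loci did not.

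**Figure D2:**
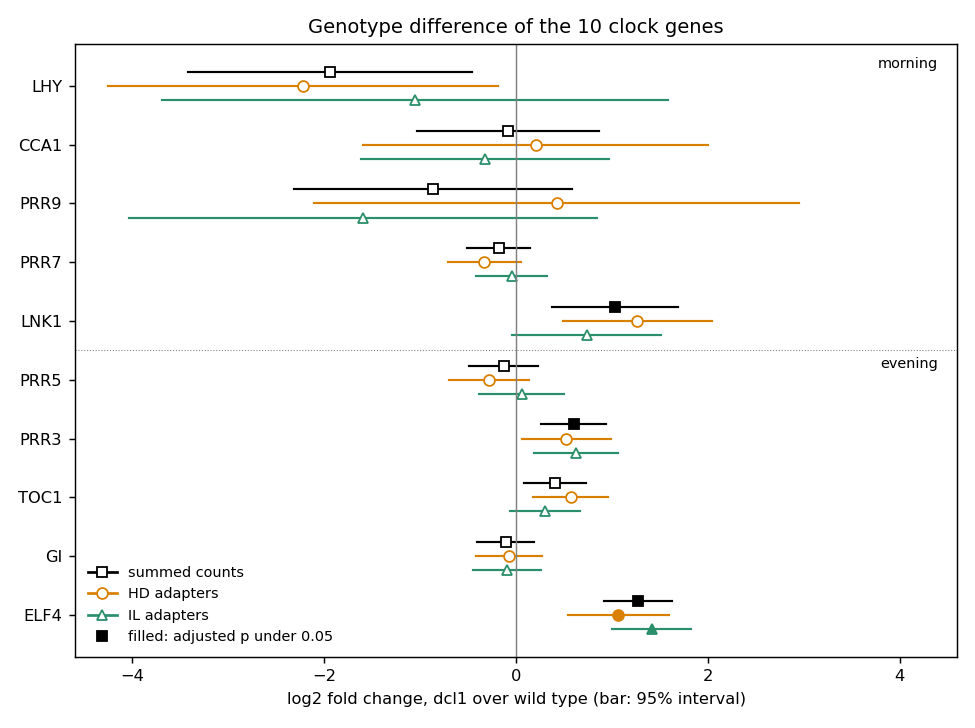
Log2 fold change of each clock gene, dcl1 over wild type, with its 95% interval, on summed counts, with HD adapters and with IL adapters; filled marks have an adjusted p under 0.05. ELF4 is filled in all 3 comparisons, PRR3 and LNK1 on sums, and the widest intervals belong to LHY, CCA1 and PRR9, the genes with fewest counts.

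The second question was whether the difference was seen with each adapter. With HD adapters ELF4 rose by a log2 fold change of 1.07 (adjusted p = 0.0169 by edgeR, SE 0.25), and with IL adapters by 1.41 (SE 0.19, adjusted p = 0.00046). It was the 1 clock gene of 10 called with HD, where 3.96% of 18863 loci tested were called (1.89% higher, 2.07% lower), and the 1 of 10 called with IL, where 4.34% of 18637 were (1.93% higher, 2.41% lower). No clock gene was called lower with either adapter by edgeR or DESeq2. At an unadjusted p under 0.05 by edgeR, 4 were higher and 1 was lower (LHY) with HD, and 2 were higher and 0 lower with IL. Of all loci tested, 2831 of 18863 had such a p with HD and 3278 of 18637 with IL. The HD call of ELF4 ended without dcl1 HD library 1 (0.66, adjusted p = 0.162) and dcl1 HD library 2, which remains, held its lowest dcl1 level.

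LNK1 did not pass with either adapter, at a log2 fold change of 1.26 with HD (SE 0.37, adjusted p = 0.0658) and 0.73 with IL (SE 0.36, adjusted p = 0.314). It passed with HD when wild-type HD library 1 was left out (2.11, adjusted p = 7.33e-05) or dcl1 HD library 2 was (1.44, adjusted p = 0.00618), and with IL when wild-type IL library 1 was (1.50, adjusted p = 0.0264). Without wild-type HD library 2 it was 0.72 (adjusted p = 0.346), and without wild-type IL library 2 it was 0.22 (adjusted p = 0.948). PRR3 had 0.52 with HD (SE 0.22, adjusted p = 0.250) and 0.62 with IL (SE 0.21, adjusted p = 0.112). TOC1 had 0.57 with HD (SE 0.19, adjusted p = 0.109) and 0.30 with IL (SE 0.17, adjusted p = 0.398). The HD value of TOC1 passed without wild-type HD library 2 (0.81, adjusted p = 0.0183) or dcl1 HD library 1 (0.71, adjusted p = 0.0274), and was 0.37 without wild-type HD library 1 (adjusted p = 0.592). ELF4, LNK1, PRR3 and TOC1 each had a positive value with both adapters.

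LHY had a log2 fold change of -2.22 with HD (SE 0.97, adjusted p = 0.269) and -1.06 with IL (SE 1.24, adjusted p = 0.752). The IL value was -4.13 without dcl1 IL library 1 (adjusted p = 0.150) and -0.12 without dcl1 IL library 2 (adjusted p = 0.965). PRR9 had 0.42 with HD (SE 1.21) and -1.60 with IL (SE 1.15), and CCA1 had 0.20 with HD (SE 0.86) and -0.32 with IL (SE 0.61); neither passed with either adapter, apart from PRR9 with IL without dcl1 IL library 1 (-5.31, adjusted p = 0.0151), which leaves the library with 2 counts as the only dcl1 one. PRR7 had -0.33 with HD (SE 0.18) and -0.048 with IL (SE 0.18), PRR5 -0.28 with HD (SE 0.20) and 0.056 with IL (SE 0.21), and GI -0.077 with HD (SE 0.16) and -0.096 with IL (SE 0.17).

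The difference between the adapters' genotype effects was tested as an interaction over all 8 libraries. This main fit did not pair the HD and IL libraries of an RNA sample. With the RNA sample as a block, which pairs them, 36 of 19521 loci were called, and 0 of the 10 clock genes. The counts and values that follow are from the main fit. Of the 10 clock genes 0 passed by edgeR (0 with p under 0.05 before adjustment, 0 by DESeq2), where 0.0256% of 19521 loci did (0.00512% with a higher and 0.0205% with a lower value). The interaction, the HD log2 fold change minus the IL one, was -0.35 for ELF4 (SE 0.33, 95% interval -1.02 to 0.33), 0.53 for LNK1 (SE 0.57, 95% interval -0.64 to 1.71) and 0.27 for TOC1 (SE 0.25, 95% interval -0.26 to 0.80). For LHY it was -1.15 (SE 1.54) and for PRR9 2.02 (SE 1.66), with 95% intervals of -4.36 to 2.05 for LHY and -1.43 to 5.46 for PRR9, so that for both genes differences of several fold in either direction remain inside the interval.

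The adapter itself was compared over both genotypes, and the main fit again did not pair the libraries of an RNA sample. Of the 10 clock genes 0 were called between HD and IL libraries by edgeR (1 with p under 0.05 before adjustment, 0 by DESeq2), where 0.492% of 19521 loci tested were called (0.425% higher and 0.0666% lower with HD). That 1 gene was ELF4, which had a log2 fold change, HD over IL, of -0.47 (SE 0.16, adjusted p = 0.351). With the RNA sample as a block, which pairs the HD with the IL library of each sample, it was -0.50 and passed (adjusted p = 0.0444). With that block 232 of 19521 loci were called in either direction. In the main fit the other 9 genes had values from -0.36 for CCA1 to 0.46 for LHY.

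Levels within the clock were compared per kilobase of exon. In wild type ELF4 had 43.5 ± 6.91 CPM per kb on sums, PRR5 39.7 ± 3.44, GI 33.4 ± 2.23, TOC1 32.2 ± 5.20 and PRR7 32.1 ± 4.53 CPM per kb. Of these 5, each differed from the next in the order by less than their combined spread (the root of the summed squares of both SDs), except PRR5 from GI. The 5 ranked from percentile 91.2 for PRR7 to 93.7 for ELF4 among 22444 loci. PRR3 followed at 8.44 ± 0.796 CPM per kb and LNK1 at 3.65 ± 2.21 CPM per kb. CCA1 at 1.01 ± 0.188, PRR9 at 0.899 ± 0.432 and LHY at 0.722 ± 0.0648 CPM per kb came last, with ranges of CCA1 and PRR9, and of PRR9 and LHY, that overlapped. In wild type, the 5 evening genes thus held the first 4 places and the sixth, and 3 of the morning genes the last 3.

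In dcl1 the order was the same in all places but the second to the fourth. ELF4 had 105 ± 12.0 CPM per kb, followed by TOC1 at 42.8 ± 0.288, PRR5 at 36.3 ± 8.42, GI at 30.9 ± 0.831 and PRR7 at 28.3 ± 2.63 CPM per kb. PRR3 had 12.8 ± 0.258, LNK1 7.37 ± 1.69, CCA1 0.954 ± 0.153, PRR9 0.489 ± 0.244 and LHY 0.186 ± 0.144 CPM per kb. By the same measure TOC1 and PRR5, PRR5 and GI, and GI and PRR7 did not differ beyond their spread. ELF4 thus stood clear of its neighbour TOC1 in dcl1, and within its spread of its neighbour PRR5 in wild type.

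**Figure D3:**
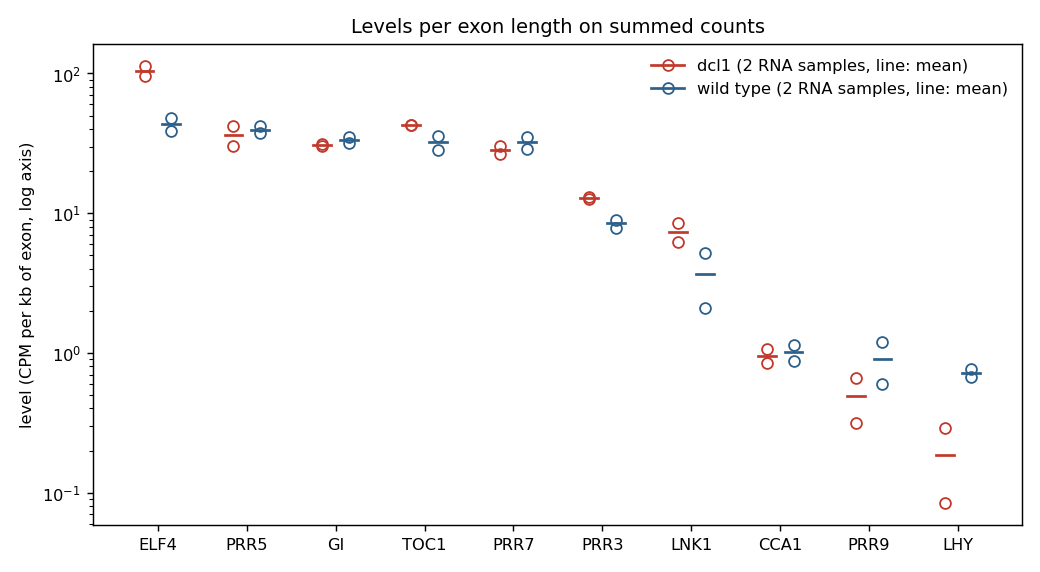
Level of each clock gene per kilobase of exon (CPM per kb on summed counts, log axis), dcl1 left of wild type; points are RNA samples, 2 per genotype, and lines mark their mean. ELF4 is highest in both genotypes, 5 genes lie close together in wild type, and LHY, CCA1 and PRR9 lie lowest.

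Morning genes were set against evening genes by the mean log2(CPM + 0.5) of each set in each RNA sample, with no test, since the genes were chosen with results of these data known. The evening mean was 6.22 ± 0.100 in dcl1 and 5.82 ± 0.0742 in wild type, a difference of 0.40, and the morning mean was 2.63 ± 0.359 in dcl1 and 2.88 ± 0.397 in wild type, a difference of -0.25 (SD, n = 2 each). The morning minus evening value was -3.41 and -3.77 in dcl1 samples 1 and 2, against -2.60 and -3.27 in wild-type samples 1 and 2. Both dcl1 samples were below both wild-type samples, though dcl1 sample 1 and wild-type sample 2 were close. By library, it was -3.41 and -3.38 in dcl1 HD against -2.61 and -3.43 in wild-type HD, which overlapped, and -3.41 and -4.08 in dcl1 IL against -2.64 and -3.19 in wild-type IL, which did not. The difference of the means was -0.38 with HD and -0.83 with IL libraries alone. On sums the difference of the means, -0.65, was -0.12 without LHY and PRR9, the genes with fewest counts, and -0.040 with medians in place of means. Without 1 sample at a time it ran from -0.99 to -0.32.

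Around the core genes, 28 of 29 further clock genes could be tested on sums, and 2 rose and 1 fell in dcl1 by edgeR, beside 8.85% of all loci called. Their median log2 fold change was -0.014. With HD adapters 0 of 28 were called by edgeR, beside 3.96% of loci tested, and with IL adapters 0 of 27, beside 4.34%. DESeq2 called 1 higher with HD and 2 higher with IL. Of the 7 partners and relatives of the evening complex 0 were called on sums by edgeR (1 with p under 0.05 before adjustment, 0 by DESeq2). LUX, its DNA-binding member, had 88.3 ± 19.0 CPM in dcl1 and 63.1 ± 8.07 CPM in wild type, with a log2 fold change of 0.48 (adjusted p = 0.0913, SE 0.17), and ELF4-L4, a relative of ELF4, had -0.42 (adjusted p = 0.260). LUX passed on sums with no filter on low counts (0.48, adjusted p = 0.0253), without wild-type sample 2 (0.61, adjusted p = 0.0288) and without dcl1 sample 1 (0.69, adjusted p = 0.0155). Without dcl1 sample 2 it was 0.24 (adjusted p = 0.655).

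Of the 10 tested REVEILLE and LNK genes 1 rose and 1 fell on sums, where 4.30% of all loci rose and 4.55% fell. RVE2, a MYB factor related to LHY and CCA1, stood at 4.16 and 2.37 CPM in dcl1 HD, against 0 and 1.25 CPM in wild-type HD, and at 6.13 and 4.51 CPM in dcl1 IL, against 1.35 and 0.842 CPM in wild-type IL. It rose by a log2 fold change of 2.28 (adjusted p = 0.0062, SE 0.49), and its libraries did not overlap. RVE2 did not pass with HD (2.33, adjusted p = 0.391 by edgeR) or with IL adapters (2.29, adjusted p = 0.0537). LNK4 fell, with a log2 fold change of -0.91 (adjusted p = 0.0416, SE 0.27), with 6.88 ± 2.45 CPM in dcl1 and 12.9 ± 1.76 CPM in wild type, while LNK1 of the same family rose. The LNK4 call ended without wild-type sample 1 (-0.76, adjusted p = 0.112) or dcl1 sample 1 (-0.58, adjusted p = 0.249).

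Of 11 genes for turnover and modification of clock proteins and chromatin 1 rose and 0 fell, where 4.30% of all loci rose and 4.55% fell (3 higher with p under 0.05 before adjustment, 1 called by DESeq2). JMJ30, a histone demethylase that peaks in the evening with TOC1, had 29.1 ± 6.17 CPM in dcl1 and 14.3 ± 7.05 CPM in wild type and rose by a log2 fold change of 1.01 (adjusted p = 0.019, SE 0.26). It had 0.59 without wild-type sample 1 (adjusted p = 0.0678) and 1.62 without wild-type sample 2 (adjusted p = 5.35e-08). Of 6 light input genes 1 fell and 0 rose, beside the same shares of all loci. PHYA, the far-red photoreceptor, fell, with a log2 fold change of -0.65 (adjusted p = 0.0122, SE 0.15), with 98.0 ± 14.4 CPM in dcl1 and 153 ± 13.5 CPM in wild type, and the call ended without dcl1 sample 1 (-0.50, adjusted p = 0.120).

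Genes that the clock drives were taken as outputs. Of 10 morning outputs 0 rose and 3 fell in dcl1 on sums, where 4.55% of all loci fell, and 8 of 10 had a negative value, with a median of -0.39 beside 0.0070 over all loci. With HD adapters 0 of the 10 were called by edgeR or DESeq2 (1 higher and 1 lower with p under 0.05 before adjustment), where edgeR called 3.96% of loci tested. With IL adapters 1 fell by edgeR, CCL, where 2.41% of loci fell, and 2 fell by DESeq2 (0 higher and 4 lower with p under 0.05 before adjustment). CCL, a clock-regulated gene of short-lived messenger RNA, fell, with a log2 fold change of -0.46 (adjusted p = 0.0308, SE 0.13), with 1051 ± 17.9 CPM in dcl1 and 1446 ± 1.21 CPM in wild type. COL1, a relative of CO, fell by 1.23 (SE 0.32, adjusted p = 0.0218), and PIF4, a factor that promotes growth, fell by 0.51 (SE 0.15, adjusted p = 0.044). Each of these calls ended when 1 sample was left out: COL1 without wild-type sample 1 (adjusted p = 0.0894) or dcl1 sample 1 (0.052), CCL without dcl1 sample 1 (0.0803) or 2 (0.179), and PIF4 without wild-type sample 1 (0.213) or dcl1 sample 1 (0.0763) or 2 (0.233). Of 5 evening outputs CAT3, a catalase, fell by 0.42 (SE 0.12, adjusted p = 0.0433), and 0 rose, where 4.30% of all loci rose and 4.55% fell. CAT3 had 3128 ± 163 CPM in dcl1 and 4170 ± 49.2 CPM in wild type, and its call ended without wild-type sample 1 (adjusted p = 0.0659) or dcl1 sample 1 (0.175) or 2 (0.114). GRP7, an RNA-binding protein with an evening peak, had a value of 0.29 on sums (adjusted p = 0.197), and was called higher with IL adapters (0.48, adjusted p = 0.0475) but not with HD (0.083, adjusted p = 0.847). CAT3 was called lower with IL adapters (-0.46, adjusted p = 0.0252 by edgeR) but not with HD (-0.33, adjusted p = 0.179). Of the 5 evening outputs 1 thus rose and 1 fell with IL by edgeR, where 1.93% of loci tested rose and 2.41% fell. DESeq2 called 2 higher and 1 lower with IL (2 higher and 1 lower with p under 0.05 before adjustment by edgeR). With HD adapters DESeq2 called 0 (0 higher and 1 lower with p under 0.05 before adjustment by edgeR). The interaction with the adapter passed for 0 of the 10 morning and 0 of the 5 evening outputs by edgeR and by DESeq2 (0 of the 10 and 1 of the 5 with p under 0.05 before adjustment). Neither of the 2 photoperiodic flowering genes passed by edgeR (0 with p under 0.05 before adjustment, 0 by DESeq2): CO had -1.18 (adjusted p = 0.412), and FT, with 0 counts in 3 of 8 libraries, had -0.98 (adjusted p = 0.794).

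**Figure D4:**
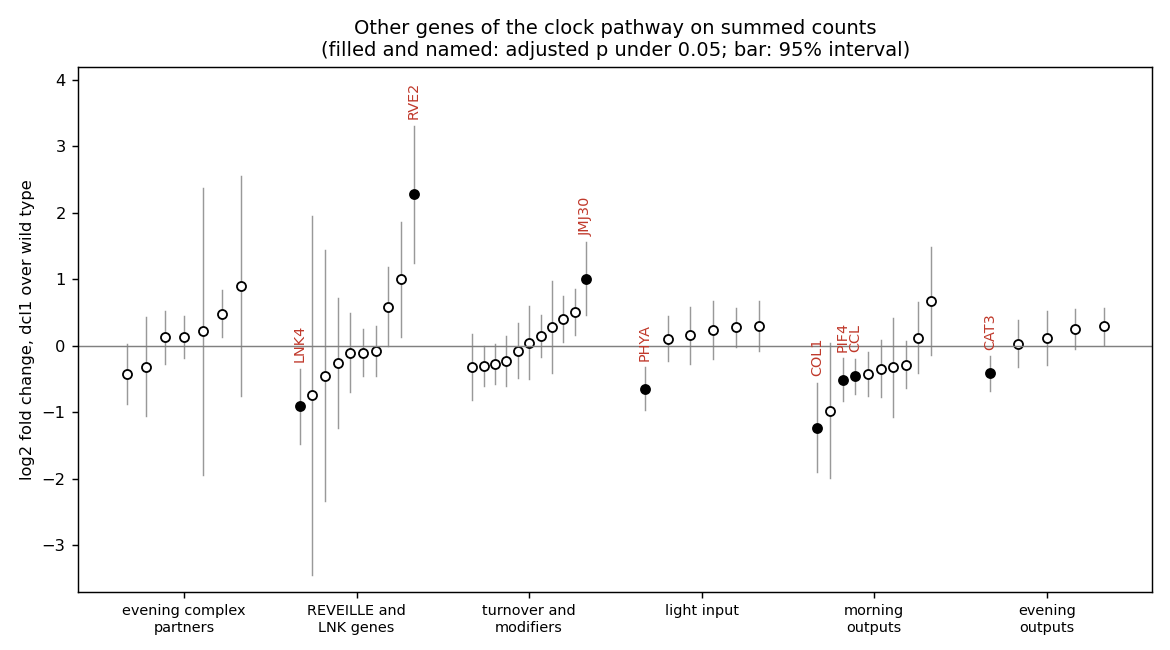
Log2 fold change on summed counts, dcl1 over wild type, with its 95% interval, of genes around the core clock by list; filled and named marks have an adjusted p under 0.05. RVE2 and JMJ30 are higher in dcl1, LNK4, PHYA, COL1, PIF4, CCL and CAT3 are lower, and 8 of the 10 morning outputs lie below 0.

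Library totals ran from 15772958 to 45929383 counts, lowest and highest in the dcl1 HD libraries, and ribosomal and transfer RNA loci took 17.3% to 28.7% of a library. DCL1 messenger RNA did not pass between genotypes (22.9 ± 0.0403 CPM in dcl1 and 20.7 ± 0.0308 CPM in wild type), so it does not check the labels, whereas AGO1, a known microRNA target, was higher in dcl1 by a log2 fold change of 1.76 (SE 0.14). Leaf mesophyll markers summed to 33793 to 38007 CPM in dcl1 libraries and to 32510 to 42236 CPM in wild-type libraries, and 0 of 5 were called. Markers of guard cells, phloem, epidermis and roots, 2 each, were not called either: phloem markers summed to 120 to 162 CPM in dcl1 and 97.3 to 151 CPM in wild type, epidermis markers to 178 to 199 CPM in dcl1 and 183 to 213 CPM in wild type, guard cell markers to 10.7 to 22.4 CPM in dcl1 and 15.9 to 20.9 CPM in wild type, and root markers to at most 3.16 CPM in dcl1 and 3.07 CPM in wild type. On sums guard cells had 1 gene and the other marker lists 0 with p under 0.05 before adjustment, and DESeq2 called 0. That gene was FAMA (log2 fold change -0.62, adjusted p = 0.0987 by edgeR), at 7.15 to 11.2 CPM in dcl1 libraries and 12.3 to 15.2 CPM in wild-type libraries. KAT1 had 0.042. Before adjustment, p was under 0.05 for 3 of 5 mesophyll markers (2 higher, 1 lower) and 1 root marker (lower) with HD, and for 1 guard cell (lower) and 1 phloem marker (higher) with IL. Seed and flower markers were at most at 5 counts in any library, and OLEO1 was at 0 in all.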

How the data were processed

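Leaf messenger RNA was measured in 8 libraries: dcl1 and wild type, each with HD and IL adapters, 2 per group. The deposited files hold whole-number read counts per locus, made by the authors on TAIR10 per the submitters' processing notes; which aligner and counter were used, and whether by strand, is not given in the sources used here. Loci missing from a file were set to 0. Of 22546 loci 22444 matched the TAIR10.1 annotation by identifier, from which positions, exon lengths and promoters came, and 102 did not. Counts could be split or repeated at loci with shared sequence.

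Tests used edgeR 4.0.16 in R 4.3.3: filterByExpr, TMM scaling, the quasi-likelihood F test (two-sided) and Benjamini-Hochberg adjustment over all loci tested. The SE is the absolute log2 fold change over the square root of F. HD and IL counts of an RNA sample were summed for the main genotype test. Within an adapter only its 4 libraries were fitted, since both adapters share RNA samples. The interaction and the adapter test used all 8, with no pairing by RNA sample in the main fit and with it as an alternative. CPM are scaled by TMM and were computed here. Alternatives were RLE scaling, DESeq2 1.42.0, no filter, at least 10 counts in every library, no ribosomal or transfer RNA loci, a replicate block and leaving out each sample or library; the fits were tested on simulated data. With 1 sample left in a genotype, it is assumed to vary like the others.

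The design text says that HD and IL libraries share RNA samples, and same-numbered libraries of a genotype were taken as 1 sample. Their deviations from the group means correlated at r = 0.393 in dcl1 and 0.692 in wild type over the 964 loci of at least 100 CPM. Over the 9015 loci of at least 10 CPM r was 0.0952 in dcl1 and 0.286 in wild type, and over all 19521 it was 0.00492 in dcl1 and 0.082 in wild type. The pairing by replicate number is thus an assumption, which the labels do not state outright. The 2 libraries of each group differed by more than sampling noise.

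The genes and lists were chosen with earlier results of these data known. Named are all 10 clock genes, DCL1, AGO1, the called members of each other list (or the 2 of smallest p), and the loci most alike in profile. Low counts limit LHY, CCA1 and PRR9, and no molecular identifiers were given. A further promoter sequence, and motif results that need it, are not reported here.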

Additional observations from a re-analysis of the deposited data

How the results depend on the processing

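On summed counts 1744 loci were called (1448 to 1954 without 1 sample) and ELF4 passed in every alternative run. Clock genes called higher, 3, numbered 1 to 3 without 1 sample, and those called lower, 0, numbered 1 with no filter and 0 to 1 without 1 sample. LNK1 also failed with RLE scaling (adjusted p = 0.0536) and without ribosomal and transfer RNA loci (0.057), and CAT3 with RLE scaling (0.0518). With HD adapters 747 loci were called (1217 with no filter, 695 to 1308 without 1 library), and the 1 clock gene became 3 with no filter, 2 with at least 10 counts in every library and 1 to 2 without 1 library. With IL adapters 809 loci were called (1413 with no filter, 563 to 1447 without 1 library), with 1 to 2 clock genes higher and 0 to 1 lower without 1 library. The interaction called 5 loci (16 with no filter, 3 with RLE, 3 to 13 without 1 library), and the adapter comparison 96 (190 with no filter, 186 by DESeq2, 71 to 103 without 1 library). The morning minus evening difference of -0.65 was -0.040 with medians and, chosen after seeing the data, -0.12 without LHY and PRR9.

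The labels do not say that the replicate number pairs dcl1 with wild type. Deviations of same-numbered sums correlated at r = -0.0342 over the loci of at least 100 CPM. With so few samples, that value cannot tell whether same-numbered samples were handled together. With the replicate number as a block, 1227 loci were called in either direction with HD, and 1411 loci with IL. With HD 3 clock genes were called higher, where LNK1 had an adjusted p of 0.000647 and TOC1 of 0.0425. On sums LUX passed (adjusted p = 0.0492), CAT3 did not pass (adjusted p = 0.0624) and FT turned to 0.42. With the RNA sample as a replicate block, which pairs HD with IL, the interaction called 36 loci, and the adapter comparison called 232 loci in either direction. There ELF4 was the 1 clock gene called lower; PRR9 turned to 0.022.

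The log2 fold changes that turned sign without 1 sample or library were not called in the main comparisons. On sums CCA1 ran from -0.28 to 0.12, PRR5 from -0.39 to 0.087 and FT from -2.0 to 3.85. With HD, CCA1 ran from -0.18 to 0.70 and PRR9 from -0.017 to 1.03. With IL, PRR7 ran from -0.19 to 0.078, PRR5 from -0.30 to 0.33 and GI from -0.23 to 0.014. The interaction ran from -2.10 to 1.91 for LHY, -0.23 to 1.39 for LNK1, -0.62 to 0.026 for PRR5, -0.21 to 0.050 for PRR3 and -0.091 to 0.16 for GI. The adapter values ran from -0.74 to 0.28 for PRR9, -0.14 to 0.045 for PRR7, -0.17 to 0.43 for LNK1, -0.080 to 0.21 for PRR5 and -0.013 to 0.094 for PRR3. The cause of these changes was not tested. LHY, CCA1 and PRR9 had few counts, and their intervals span several fold. Whether library depth sets the width of these intervals was not tested.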

Other observations

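The loci whose level followed the clock genes most closely over the 8 libraries were sought among 9015 loci with a mean of at least 10 CPM, by the mean absolute difference of centred log2 values, as a description. Nearest to the mean profile of LHY and CCA1 were NHL1 (AT3G11660) at 0.139, IDH-VI (AT3G09810) at 0.147 and AT5G58150 at 0.149, where the median of all loci compared was 0.423. Nearest to the mean profile of the 5 evening genes were AT3G56680 at 0.0576, EIF3C (AT3G56150) at 0.0586 and AOC2 (AT3G25770) at 0.0621, where the median was 0.278. The libraries share RNA samples, and the profile of LHY and CCA1 rests on low counts.

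AT2G46670, which holds 733 of the 779 repeated 50-base sequences of PRR9, had 28 and 30 counts in dcl1 HD against 12 and 9 in wild-type HD, and 5 and 0 counts in dcl1 IL against 49 and 44 in wild-type IL. PRR9 itself had 60 and 31 counts in dcl1 HD against 32 and 31 in wild-type HD, and 32 and 2 counts in dcl1 IL against 77 and 74 in wild-type IL. AT5G64160, which overlaps LNK1 on the other strand, had 241 and 139 counts in dcl1 HD against 72 and 346 in wild-type HD, and 80 and 232 counts in dcl1 IL against 206 and 265 in wild-type IL.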
